A study of Mus musculus with 4 samples.

Results

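The genes described here are 10 genes of the melanocyte lineage, the pigment cells of skin and hair, measured by RNA sequencing of bulge cells from mouse skin. They were listed by symbol: Gpnmb, Mitf, Dct, Tyr, Tyrp1, Pmel, Mlana, Kit, Sox10 and Slc45a2. All 10 were found among the 55536 genes of the count table. The bulge is the part of the follicle that houses its stem cells, and melanocyte stem cells lie in and just below it. The list was drawn up with the differences between the groups known, that of Gpnmb having the second smallest p-value of all genes tested, so those differences are given below as a description. The question was whether Gpnmb moved with the other pigment cell genes.

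The study held 4 libraries, 2 per group. The 2 knockout samples came from Cdh5CreERT2; Alk1 flox/flox mice, in which a tamoxifen-activated Cre under the promoter of the endothelial cadherin gene Cdh5 removes Alk1, the receptor encoded by Acvrl1. The 2 control samples came from littermates, and the labels do not say whether these carried Cre or which Alk1 alleles they had. All mice were on a C57BL/6 background and received 100 µg tamoxifen per g of body weight into the peritoneum at postnatal day 17. Skin was taken at postnatal day 20. How bulge cells were separated from the skin was not given in the sources used here. Samples are numbered 1 and 2 in each group, with no word on whether each pools several mice or comes from a separate litter or preparation, so each p-value measures only how these samples spread, which may be technical.

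Library totals ran from 16326906 to 29130974 counts, so 1 count was worth 0.0338 to 0.0598 CPM (counts scaled to a common effective library size). Bulge keratinocyte markers were abundant, with all 12 listed markers tested and their summed level between 71202 and 85776 CPM. Markers of sebaceous gland and of interfollicular epidermis differed within the control group. The summed level of 9 interfollicular differentiation markers was 13013 and 4455 CPM in controls 1 and 2 and 8577 and 3991 CPM in knockouts 1 and 2. The targeted gene Acvrl1 was 21.6 and 24.3 CPM in controls against 17.9 and 23.1 CPM in knockouts. Deletion was aimed at endothelium and the counts cover the whole gene, so Acvrl1 does not check the labels.

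Pigment is made in melanosomes, organelles related to lysosomes. Sox10 and the basic helix-loop-helix factor Mitf are transcription factors that specify and maintain the lineage, and Kit is the receptor through which its cells receive stem cell factor. Mitf binds short E-box motifs in the promoters of the enzymes Tyr, Tyrp1 and Dct and of the melanosome genes Pmel, Mlana and Slc45a2. Gpnmb is a transmembrane glycoprotein related to Pmel. It is found in melanosomes, and also in lysosomes of cells without pigment such as macrophages, where the Mitf relatives Tfeb and Tfe3 act on lysosomal genes.

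The promoter windows of 5 genes are shown because the E-boxes that link Mitf to pigment genes can be read in some of them and not in others. They are RefSeq windows on GRCm38.p6, from 250 bases before to 50 bases after an annotated start, written 5′ to 3′ on the strand of the gene. Capitals mark CATGTG on either strand and the M-box AGTCATGTG, which contains it. CACGTG and the M-box form AGTCACGTG were also searched on both strands. The windows are chr7:87493463-87493762 (minus strand, Tyr), chr4:80833963-80834262 (plus strand, Tyrp1), chr14:118052197-118052496 (minus strand, Dct), chr6:49036268-49036567 (plus strand, Gpnmb) and chr6:97991533-97991832 (plus strand, the most downstream of 3 Mitf starts in the table).
Tyr: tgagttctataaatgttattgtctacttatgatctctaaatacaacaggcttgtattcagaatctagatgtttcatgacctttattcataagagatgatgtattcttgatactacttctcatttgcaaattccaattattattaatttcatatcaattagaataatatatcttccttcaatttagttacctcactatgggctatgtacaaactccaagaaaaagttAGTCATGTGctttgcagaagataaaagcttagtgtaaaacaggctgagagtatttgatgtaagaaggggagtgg
Tyrp1: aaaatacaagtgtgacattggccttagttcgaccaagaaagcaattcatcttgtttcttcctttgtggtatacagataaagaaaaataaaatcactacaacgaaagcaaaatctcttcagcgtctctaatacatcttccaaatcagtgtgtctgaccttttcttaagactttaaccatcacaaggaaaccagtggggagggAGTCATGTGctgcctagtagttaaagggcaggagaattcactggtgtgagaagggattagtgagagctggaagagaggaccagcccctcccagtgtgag
Dct: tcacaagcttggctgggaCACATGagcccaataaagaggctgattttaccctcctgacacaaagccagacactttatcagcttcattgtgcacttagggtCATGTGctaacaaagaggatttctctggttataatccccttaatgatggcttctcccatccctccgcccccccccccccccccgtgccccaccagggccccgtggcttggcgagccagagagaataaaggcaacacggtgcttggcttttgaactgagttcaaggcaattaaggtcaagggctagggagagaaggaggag
Gpnmb: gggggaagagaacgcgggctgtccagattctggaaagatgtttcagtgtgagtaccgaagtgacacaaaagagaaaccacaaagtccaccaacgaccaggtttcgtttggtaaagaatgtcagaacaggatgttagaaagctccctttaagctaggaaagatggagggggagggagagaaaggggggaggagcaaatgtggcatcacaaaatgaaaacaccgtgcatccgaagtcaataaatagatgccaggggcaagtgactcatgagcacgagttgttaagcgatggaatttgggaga
Mitf: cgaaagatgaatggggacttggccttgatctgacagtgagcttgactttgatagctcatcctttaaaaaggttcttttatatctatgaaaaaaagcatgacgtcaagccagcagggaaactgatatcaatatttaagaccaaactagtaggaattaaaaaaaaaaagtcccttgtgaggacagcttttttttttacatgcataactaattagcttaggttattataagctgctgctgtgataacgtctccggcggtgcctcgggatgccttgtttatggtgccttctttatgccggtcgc

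The Tyr window held AGTCATGTG from base -24 to base -16, counted from the start site, and the Tyrp1 window held it from base -49 to base -41. Dct held CATGTG at bases -150 to -145 and, on the opposite strand, at bases -232 to -227. The windows of Gpnmb, of the 3 Mitf starts and of the 2 Kit starts held none of these motifs, which says only that these letters are not in those 300 bases. Among all 32851 windows of the table, 14.2% held CATGTG, 7.15% held CACGTG and 0.855% held an M-box. Pmel, Mlana, Sox10 and Slc45a2 were not matched in the table.

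Read per length of transcript, in TPM, which divides counts by exon length before scaling, Mitf was the most abundant of the 10 genes in controls, at 57.4 ± 3.94 TPM (SD, n = 2). Gpnmb followed at 7.50 ± 0.519 TPM and Dct at 5.03 ± 1.44 TPM. Pmel came next at 3.14 ± 1.66 TPM and Tyrp1 at 1.33 ± 0.217 TPM, with the ranges of Dct and Pmel overlapping. Sox10, Mlana, Kit, Slc45a2 and Tyr each had a control mean of at most 0.525 TPM, and neighbours in this order overlapped except Slc45a2 and Tyr. In knockouts Gpnmb stood first at 37.1 ± 9.92 TPM and Mitf second at 34.0 ± 1.58 TPM, with overlapping ranges. Dct (5.51 ± 0.226 TPM), Pmel (2.59 ± 0.212 TPM) and Tyrp1 (0.745 ± 0.136 TPM) followed in the same order as in controls.

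**Figure D1:**
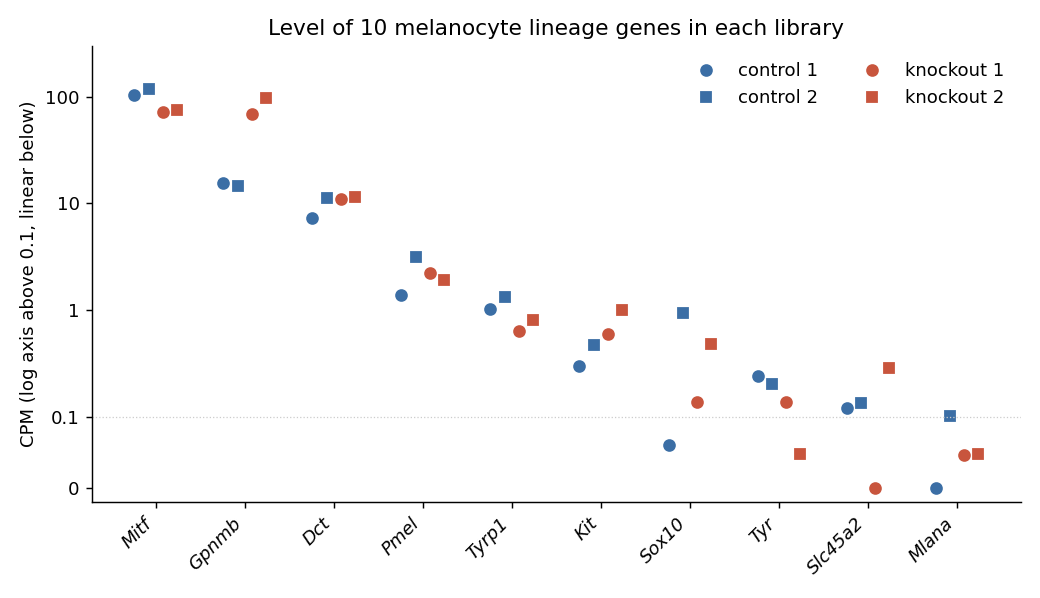
CPM of each of the 10 genes (x axis) in each of the 4 libraries, on a y axis that is logarithmic above 0.1 CPM and linear below it. Circles are sample 1 and squares sample 2 of each group. Gpnmb moves from 14.6 to 15.7 CPM in controls to 68.8 to 98.3 CPM in knockouts, while Dct stays between 7.24 and 11.4 CPM in all libraries.

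Of the 10 genes, 7 had enough counts to be tested and 3 (Tyr, Mlana and Slc45a2) did not. In edgeR's quasi-likelihood test over 14259 genes, 0 of the 7 passed an adjusted p of 0.05, against 0.00701% of all genes tested (1 gene). At an unadjusted p under 0.05 there were 2 of the 7, Gpnmb and Mitf, against 10.7% of all genes. DESeq2 called 1 member, Gpnmb, against 0.58% of the genes to which it gave an adjusted p. With the replicate number as a block, edgeR also called Gpnmb alone of the members, against 0.743% of genes. The estimates of Gpnmb and Mitf had opposite signs. In sign, 3 of the 7 lay above 0 and 4 below, against 47.5% and 52.5% of genes. In size, Gpnmb alone of the 7 passed a log2 fold change of 2, against 0.295% of genes. Since this contrast singled out Gpnmb, nothing is read from its share.

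Gpnmb (ENSMUSG00000029816, chromosome 6, 49036546 to 49070929, GRCm38) had 262 and 432 counts in controls 1 and 2 and 1498 and 2055 counts in knockouts 1 and 2. On the CPM scale these were 15.7 and 14.6 for the controls against 68.8 and 98.3 for the knockouts. Both knockouts stood above both controls, with a gap between the groups wider than the spread inside either. The log2 fold change was 2.47 ± 0.20 (SE), or 5.52-fold, the seventh largest increase among the 14259 genes. Its edgeR adjusted p over all genes was 0.080, given as a description since this contrast chose the gene. With 1 library left out, the log2 fold change ran from 2.19 to 2.698.

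Mitf (ENSMUSG00000035158, chromosome 6, 97807052 to 98021349) had 1730 and 3467 counts in controls and 1557 and 1556 in knockouts. Its level was 103 and 117 CPM in controls against 71.5 and 74.5 CPM in knockouts, so both knockouts lay below both controls. The log2 fold change was -0.60 ± 0.12, a level 0.661 times that of controls (edgeR adjusted p = 0.43), and it did not pass. It ran from -0.68 to -0.48 with 1 library left out. Mitf passed when edgeR was run with no count filter (adjusted p = 0.0061), where 1.79% of genes were called, and not with DESeq2 (adjusted p = 0.12). The counts cover all Mitf start sites together, so the melanocyte form cannot be told apart from the others. In bulk RNA, fewer cells of a type and less RNA per cell cannot be told apart either. Control 1 had 1730 counts of Mitf beside 1 of Sox10, 4 of Tyr and 0 of Mlana. Which cells the Mitf RNA came from was not tested, so ratios to Mitf need not compare genes of the same cells.

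**Figure D2:**
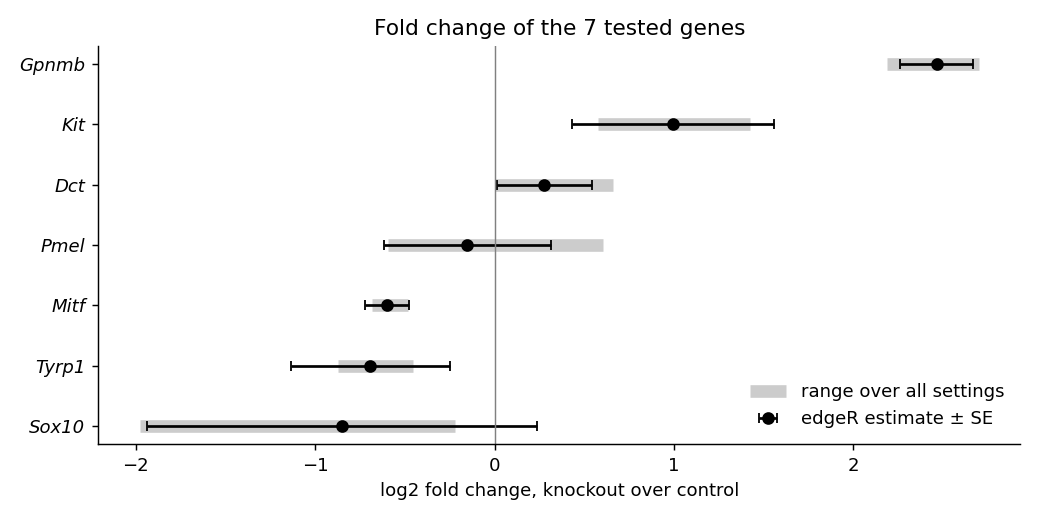
Log2 fold change of knockouts over controls (x axis) for the 7 tested genes. Black points and bars are the edgeR estimate ± SE, and grey bars span the estimates over all settings tried. Gpnmb stays between 2.19 and 2.698 and Mitf between -0.68 and -0.48, while the grey bar of Pmel crosses 0.

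Among the pigment enzymes, Dct, which acts on dopachrome, had 121 and 332 counts in controls and 241 and 239 in knockouts. In CPM these were 7.24 and 11.2 against 11.1 and 11.4. Both knockouts lay inside or just above the upper control, and the groups overlapped. The log2 fold change was 0.28 ± 0.26, which did not pass (adjusted p = 0.71), and it was 0.66 without control 2 and 0.0022 without control 1. Tyrp1, an enzyme of eumelanin synthesis, measured 1.02 and 1.32 CPM in controls against 0.643 and 0.813 CPM in knockouts, from 14 to 39 counts. The knockouts were lower without overlap, with a log2 fold change of -0.69 ± 0.44 (adjusted p = 0.59). Tyr, the rate-limiting enzyme, had 4, 6, 3 and 1 counts in controls 1 and 2 and knockouts 1 and 2, too few for a test.

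Pmel, the protein of melanosome fibrils, had 23 and 92 counts in controls and 48 and 40 in knockouts. In CPM these were 1.38 and 3.11 against 2.20 and 1.91, so both knockouts lay between the controls. Its log2 fold change was -0.15 ± 0.46 (adjusted p = 0.92) and turned to 0.60 without control 2. Exons of Pmel overlap those of Dgka and Cdk2 on the opposite strand over 4.58% and 1.48% of their length, and the strand setting of the counting is not given, so a few of these counts are uncertain. Mlana, a melanosome membrane protein, had 0 and 3 counts in controls and 1 and 1 in knockouts. Slc45a2, a melanosomal transporter, had 2 and 4 counts in controls and 0 and 6 in knockouts. By a one-sided 95% limit, a count of 0 allows up to about 3 counts, which is 0.179 CPM in control 1 and 0.138 CPM in knockout 1. Differences in Tyr, Mlana and Slc45a2 were not detectable at this depth.

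Kit measured 0.299 and 0.474 CPM in controls against 0.597 and 1.00 CPM in knockouts, from 5, 14, 13 and 21 counts. The knockouts were higher without overlap, and the log2 fold change was 0.99 ± 0.56 (adjusted p = 0.54), between 0.57 and 1.42 with 1 library left out. Kit also marks mast cells. Of 9 mast cell markers, 6 had no count in any library, among them Cpa3, Cma1 and Tpsb2, and the summed list lay between 2.71 and 4.37 CPM. Sox10 had 1 and 28 counts in controls and 3 and 10 in knockouts. That is 0.0598 and 0.947 CPM against 0.138 and 0.479 CPM, a spread within each group that exceeded the difference between the groups (log2 fold change -0.85 ± 1.09, adjusted p = 0.78). It was -0.22 without knockout 1 and -1.98 without knockout 2. Sox10 is also made by Schwann cells, the glia of nerves. Of 9 Schwann cell markers, 7 were tested and 0 had groups that did not overlap. Their median log2 fold change was -0.01, against -0.02 for all genes tested, and it was 0.22 without control 1. Over the 7 tested members, Gpnmb and Kit stood higher and Mitf and Tyrp1 lower without overlap of the groups. That is 4 of 7, against 44.9% of all genes tested, of which 21.3% stood higher and 23.6% lower, so the share lies near the background.

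Ratios of counts inside a library need no scaling between libraries and set Gpnmb beside the other members directly. For each count of Mitf there were 0.151 counts of Gpnmb in control 1 (95% exact interval 0.132 to 0.173) and 0.125 in control 2 (0.112 to 0.138). In knockouts there were 0.962 (0.896 to 1.03) and 1.32 (1.24 to 1.41). The lowest knockout ratio was 6.35 times the highest control ratio. For each count of Dct there were 2.17 and 1.30 counts of Gpnmb in controls and 6.22 and 8.60 in knockouts. The intervals cover counting error only, and the rise for which Gpnmb was chosen enters each of these ratios.

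The pigment genes were also summed, over Dct, Tyr, Tyrp1, Pmel, Mlana and Slc45a2. This sum was 9.99 and 16.1 CPM in controls against 14.1 and 14.5 CPM in knockouts, with both knockouts between the controls. Dct made up 69.7% to 78.6% of its counts. The log2 ratio of knockouts to controls was 0.18, smaller than the spread within groups (pooled SD 0.35). Its sign was not fixed: it was -0.25 without Dct, -0.22 for the geometric mean of the 6 genes and -0.17 without control 1, and it was 0.54 without control 2. Gpnmb counts were 1.57 and 0.908 times the summed pigment counts in controls and 4.88 and 6.76 times in knockouts. That is a log2 difference of 2.27 (pooled SD 0.46), between 1.87 and 2.66 with 1 library left out. An exact permutation test of 2 against 2 libraries cannot give a two-sided p below 0.333, so none is given. The sum over Mitf went from 0.0965 and 0.137 in controls to 0.197 and 0.195 in knockouts. Both knockout ratios lay above both control ratios.

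**Figure D3:**
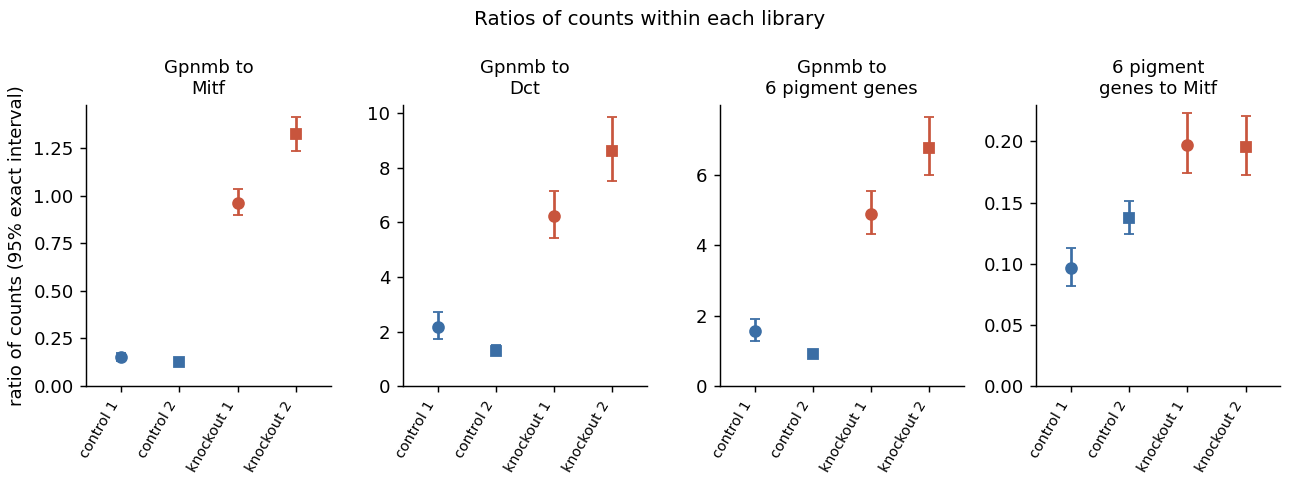
Ratios of counts within each of the 4 libraries, with 95% exact intervals for counting error. In each panel the x axis gives the libraries and the y axis, which starts at 0, the ratio. The 3 Gpnmb panels show both knockouts far above both controls, and the last panel shows the 6 pigment genes over Mitf at 0.0965 and 0.137 in controls and at 0.197 and 0.195 in knockouts.

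The 2 samples of a group give a further contrast. It is not independent of the choice of Gpnmb, since the spread within groups enters the p-value by which Gpnmb stood out. From control 1 to control 2 the level of Pmel was 2.26 times as high (95% exact interval 1.42 to 3.75), that of Dct 1.55 times (1.257 to 1.93) and that of Sox10 15.8 times, with an interval from 2.62 to 648 because control 1 had 1 count. Gpnmb was 0.933 times as high (0.798 to 1.09) and Mitf 1.13 times (1.07 to 1.20). From knockout 1 to knockout 2, Gpnmb was 1.43 times as high (1.34 to 1.53), while Dct was 1.03 times (0.860 to 1.24) and Pmel 0.868 times (0.556 to 1.35). Sox10 was 3.47 times as high in knockout 2 (0.894 to 19.6), Kit 1.68 times (0.804 to 3.66) and Tyrp1 1.27 times (0.587 to 2.77). These are ratios of single libraries with counting error only, which well-counted genes often exceed, and no difference between genes is read from them. Interfollicular markers, lower in sample 2 of each group, differed between the same libraries, and their part in these ratios was not tested.

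The wider pigment pathway was read from a list of 15 other genes of melanosome transport, pH and pigment type. Of these, 11 were tested, 0 passed in the edgeR test, and 5 were above and 6 below 0. The median log2 fold change was -0.13, against -0.02 for all genes, and 0.01 without a count filter. At an unadjusted p under 0.05 the list also had 0 genes, against 10.7% of all genes, and DESeq2 called 0. In 0 of the 11 both knockouts stood above both controls and in 4 below, against 21.3% and 23.6% of all genes. Oca2 and Gpr143, a melanosomal transporter and a melanosomal receptor, had no count in any library. Mc1r, the receptor of melanocyte-stimulating hormone, had at most 4 counts in a library. The members with the highest CPM were Rab38, a small GTPase of melanosome delivery (43.0 and 45.8 CPM in controls, 49.97 and 40.2 CPM in knockouts), and Myo5a, the motor of melanosome transport (33.7 and 37.0 against 28.0 and 29.0 CPM). Their log2 fold changes were 0.02 ± 0.15 (adjusted p = 0.96) and -0.31 ± 0.13 (adjusted p = 0.47). The value of Rab38 lay from -0.15 without knockout 1 to 0.17 without knockout 2, and that of Myo5a was -0.13 with the trend in gene length and GC content removed. Both genes are also used by cells without pigment.

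Of 10 other regulators of the lineage, 5 were tested and 0 passed, with 2 above and 3 below 0. At an unadjusted p under 0.05 there were also 0, against 10.7% of all genes, and DESeq2 called 0. Pax3, which acts upstream of Mitf, had 3 and 5 counts in controls and 4 and 8 in knockouts. Ednrb, the endothelin receptor of melanoblasts, had 8 and 6 counts in controls and 2 and 1 in knockouts. Neither had enough counts for a test. Foxd3, a neural crest factor, had no count in any library. Pax3, Ednrb and Foxd3 were named after their values were seen. The members with the highest CPM, Tfap2b and Erbb3, a transcription factor and a neuregulin receptor, are also expressed by keratinocytes. They gave -0.26 ± 0.13 (adjusted p = 0.51) and -0.08 ± 0.24 (adjusted p = 0.92), and Erbb3 turned to 0.19 without control 1 or without knockout 1. Tfap2b was -0.13 without control 2. The median of this list was -0.08, with 0.10 without knockout 1 and -0.24 without knockout 2.

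Signals that keratinocytes and their neighbours send to melanocytes were read from a list of 14 genes, of which 9 were tested and 0 passed, with 5 above and 4 below 0. At an unadjusted p under 0.05 there were 2 (Tgfb1 and Nfib), against 10.7% of all genes, and DESeq2 called 0. Tgfb1 measured 19.6 and 20.6 CPM in controls against 28.9 and 39.8 CPM in knockouts (0.77 ± 0.19, edgeR adjusted p = 0.43). It passed in edgeR with no count filter (adjusted p = 0.0051), where 1.79% of genes were called. In 1 gene of the list both knockouts stood above both controls and in 2 below, against 21.3% and 23.6% of all genes. Kitl, the ligand of Kit, measured 18.7 and 26.2 CPM in controls against 25.7 and 33.6 CPM in knockouts. Its groups overlapped, with a log2 fold change of 0.40 ± 0.22 (adjusted p = 0.54). Edn3, an endothelin for melanoblasts, had no count, and agouti (symbol a, listed under its synonym Asip) had 1 count in all. Nfib and Col17a1, genes of follicle stem cells through which they also affect melanocyte stem cells, gave -0.34 ± 0.12 (adjusted p = 0.43) and -0.07 ± 0.13 (adjusted p = 0.86). Col17a1 turned to 0.02 without control 2, and Nfib was -0.15 with the trend in gene length and GC content removed. The median of the list was 0.03, and it was 0.41 without knockout 1 and -0.43 without knockout 2. Kitl, Edn3 and Tgfb1 were named after their values were seen.

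Mitf belongs with Tfeb, Tfe3 and Tfec to the MiT/TFE family of factors. Tfeb measured 19.0 and 16.95 CPM in controls against 21.5 and 26.9 CPM in knockouts, higher without overlap, with a log2 fold change of 0.43 ± 0.18 (adjusted p = 0.46), and 0.26 without knockout 2. Tfe3 measured 34.6 and 33.5 CPM in controls against 32.7 and 38.3 CPM in knockouts. Its groups overlapped (0.06 ± 0.14, adjusted p = 0.89), and the value was -0.06 without knockout 2. Tfec had no count in any library. For each count of Tfeb there were 0.824 and 0.862 counts of Gpnmb in controls and 3.19 and 3.66 in knockouts. Gpnmb was chosen for its rise, so beside a gene that moved less this outcome was largely fixed in advance.

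Gpnmb is also a lysosomal protein, and 28 genes of lysosomal enzymes, membrane proteins and regulators were read beside it. Of 27 tested, 0 passed in the edgeR test and 5 had an unadjusted p under 0.05, against 10.7% of all genes. DESeq2 called 1, Ctsl, against 0.58% of the genes to which it gave an adjusted p. There were 19 above and 8 below 0, and the median log2 fold change was 0.15, against -0.02 for all genes. Without knockout 1 the median was 0.23. In 13 genes both knockouts stood above both controls and in 3 below, against 21.3% and 23.6% of all genes. Psap, the precursor of the saposins, measured 1150 and 1160 CPM in controls against 1431 and 1557 CPM in knockouts (0.37 ± 0.12, adjusted p = 0.43). Ctsb, a cysteine protease, overlapped between the groups (-0.08 ± 0.17, adjusted p = 0.87) and turned to 0.13 without control 2 and to 0.03 without knockout 2. Cd63, a membrane protein of lysosomes and melanosomes, measured 275 and 324 CPM in controls against 413 and 404 CPM in knockouts. Ctsl, another cysteine protease, measured 160 and 139 CPM in controls against 275 and 429 CPM in knockouts (1.24 ± 0.23, adjusted p = 0.43). It gave 1.52 without knockout 1 (adjusted p = 0.021) and 0.88 without knockout 2. Cd63 was named after its values were seen.

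**Figure D4:**
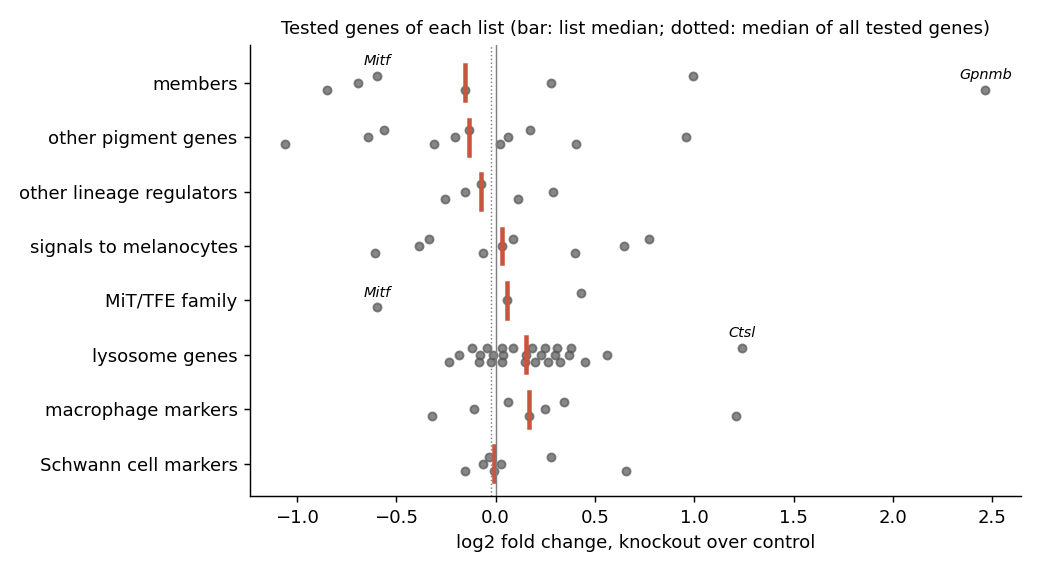
Log2 fold change of knockouts over controls (x axis) for the tested genes of 8 lists (rows); each point is a gene. The coloured bar is the median of the list and the dotted line the median of all genes tested, -0.02. Gpnmb lies apart at 2.47 and Ctsl leads the lysosome genes at 1.24, while the medians of the lists lie between -0.15 and 0.17.

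Macrophages are a further source of Gpnmb transcripts in skin. Of 17 macrophage markers, 3 (Mrc1, Trem2 and Ms4a7) had no count in any library, and C1qb and C1qc had none outside knockout 2, with 6 and 5 counts there. The summed list was 54.1 and 29.6 CPM in controls against 45.1 and 38.2 CPM in knockouts, with both knockouts between the controls. Of 7 tested markers, 0 passed, and 5 lay above and 2 below 0. At an unadjusted p under 0.05 there was 1, Cd68, against 10.7% of all genes, and DESeq2 called 0. Cd68, a lysosomal protein of macrophages, was higher without overlap at 3.95 and 3.69 CPM in controls against 4.91 and 12.8 CPM in knockouts (1.21 ± 0.47, adjusted p = 0.45), and its log2 fold change was 0.37 without knockout 2. The part of macrophages in the difference of Gpnmb was not tested.

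The genes whose profile over the 4 libraries was most like that of Gpnmb were found by the root mean square difference of log2 CPM, each gene centred on its own mean, among 11123 other genes with a mean of at least 2 CPM. The nearest was Prss12, a serine protease, at a difference of 0.43. Lrrc75b (0.54), the secreted ligand Wnt11 (0.55), the ETS factor Etv4 (0.58), the fatty acid desaturase Fads1 (0.60), the cornified envelope precursor Sprr1a (0.61), Ctsl (0.62) and Pinlyp (0.62) followed. Prss12, Lrrc75b and Pinlyp lay below 2 CPM in both controls and met that minimum only through the knockouts, so the minimum fixed part of their likeness. Wnt11 measured 2.93 and 2.44 CPM in controls against 7.16 and 7.27 CPM in knockouts. Etv4 measured 6.88 and 7.24 CPM in controls against 12.9 and 24.7 CPM in knockouts. Log2 fold changes of the 8 genes ran from 1.24 (Ctsl) to 1.72 (Prss12 and Lrrc75b), below that of Gpnmb, each with an edgeR adjusted p of 0.43. DESeq2 called Wnt11, Etv4, Fads1 and Ctsl, against 0.58% of the genes to which it gave an adjusted p. The fit with the replicate block called Etv4, Fads1 and Ctsl, against 0.743% of genes. The 8 genes were picked by their likeness to Gpnmb over these same libraries. Their calls were therefore largely fixed by that choice, and nothing is read from them. Without knockout 1, the log2 fold change was 1.80 for Etv4, 1.96 for Fads1 and 1.52 for Ctsl. Without knockout 2, the log2 fold change was 0.75 for Fads1, 0.89 for Lrrc75b, 0.83 for Sprr1a, 0.86 for Etv4 and 0.81 for Pinlyp. Of the other members, Dct, Pmel and Mitf reached the minimum of 2 CPM and the rest, Kit among them, could not be placed. Dct was in place 1554 (difference 1.10), Pmel in place 7675 (1.32) and Mitf in place 10376 (1.53). The 4 genes nearest to the pigment sum were Ccl25, Fgfrl1, Fkbp7 and Taf9b, with differences from 0.044 to 0.064. With 4 libraries, such likeness is a description and many genes share a profile by their group means alone.

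**Figure D5:**
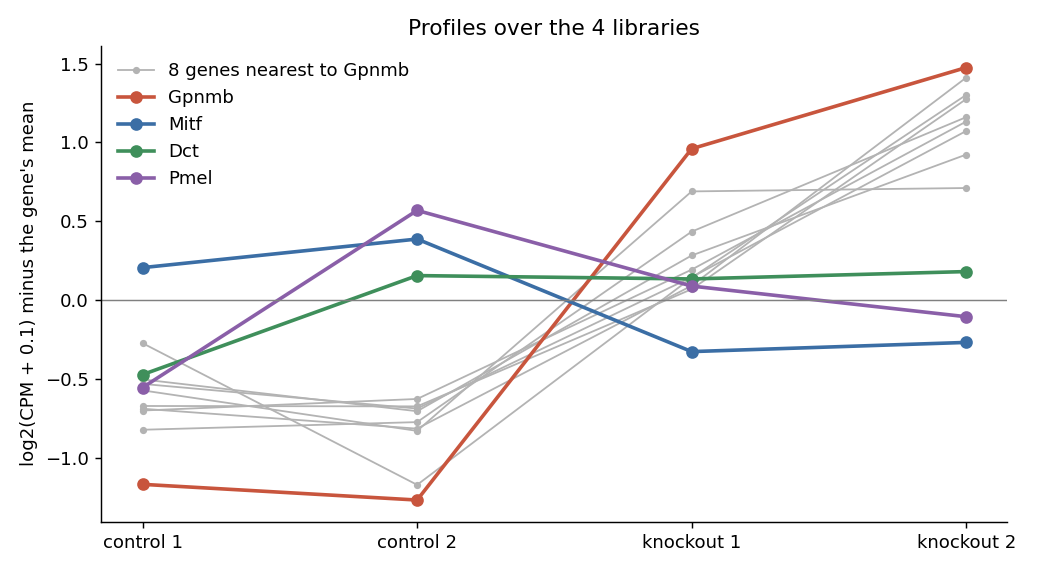
Profiles over the 4 libraries (x axis) as log2(CPM + 0.1) minus each gene's own mean (y axis), for Gpnmb, Mitf, Dct, Pmel and the 8 genes nearest to Gpnmb. Gpnmb and its nearest genes are lowest in controls and highest in knockouts, Mitf runs the other way, and Dct and Pmel differ mainly between control 1 and control 2.

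Position was read as well. Gpnmb has 14 other tested genes within 500000 bases of it on chromosome 6. Their log2 fold changes ran from -1.29 to 0.68 with a median of 0.13, and the lowest edgeR adjusted p among them was 0.43 (Atp6v0e2). The nearest tested genes on either side, Tmem176a (0.11 ± 0.21) and Malsu1 (0.25 ± 0.19), lay near 0. These genes were chosen by position after the value of Gpnmb had been seen.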

How the data were processed

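Bulge cells in 2 control and 2 knockout samples were profiled by polyA-selected, directional RNA sequencing, per the labels' protocols. The deposited values are raw counts per Ensembl gene, not normalized, per the labels. Per the submitters' processing notes, Trim Galore 0.6.0, cutadapt, FastQC, STAR 2.7.0e, GRCm38 (mm10) and DESeq2 1.26.0 were used. Counting tool, strand setting and annotation version: not given in the sources used here.

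All 55536 identifiers matched GENCODE M21 (GRCm38), the source of symbols, positions and union exon lengths. Genes passing filterByExpr (14259) were fitted with edgeR 4.0.16 in R 4.3.3 (TMM, robust quasi-likelihood, no covariates, SE as the log2 fold change over the root of F, Benjamini-Hochberg, threshold 0.05). CPM uses effective library sizes. Log2 CPM for likeness had a prior count of 2. TPM divides counts by exon length. Other fits used RLE and upper-quartile scaling, no filter, at least 50 counts in 2 libraries, DESeq2 1.42.0, limma-voom (limma 3.58.1), the replicate number as a block, removal of a length and GC trend (splines, 4 degrees of freedom), and each library left out. The fits were tested on simulated data. Replicates were not duplicates (chi-square per degree of freedom 34.5 and 45.0).

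The members and gene lists were chosen with earlier results of these data known. All members and MiT/TFE genes were named, and from each other list those past the threshold or, with none, the 2 of highest CPM, with the 8 genes nearest to Gpnmb and the 4 nearest to the pigment sum. Of the lists, 1 gene (Krt85) was not matched, and 1 gene that the rule names is not reported here. The remaining marker lists were dendritic and Langerhans cells (summed level 224 to 290 CPM, led by Mfge8 and Cd74), endothelium (5.46 to 16.0, Tek and Pecam1), fibroblasts (136 to 233, Col1a1 and Col1a2), sebaceous gland (287 to 668, Scd1 and Dgat2), interfollicular epidermis (Krt10 and Krt1), hair matrix (137 to 174, Gata3 and Dlx3) and bulge (Krt15 and Krt5). In them 0 genes passed with edgeR as above or with DESeq2. Per list, 0 to 2 genes had an unadjusted p under 0.05, against 10.7% of all genes. Without a count filter, 0 to 2 per list passed, against 1.79% of genes. With the replicate block, 1 sebaceous marker passed, against 0.743% of genes. The planned comparison of protein sequences was not run, since no protein table was used here.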

Additional observations from a re-analysis of the deposited data

How the results depend on the processing

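The count of genes called rested on the test: it was 1 with edgeR, 430 with no count filter, 80 with DESeq2, and from 1 to 65 with 1 library left out (2 without control 1, 65 without knockout 1 and 4 without knockout 2). Members called were 0, against 2 without a filter (Gpnmb and Mitf), 1 with DESeq2 (Gpnmb) and 0 to 1 with 1 library left out, Gpnmb being called without knockout 1 or knockout 2. With the replicate number as a block, 106 genes and 1 member (Gpnmb) were called. The labels do not say that a number pairs samples, and the correlation of deviations between same-numbered libraries across genes was 0.12. With 2 pairs, whether the numbers pair the samples was not settled. Gpnmb stayed between 2.19 and 2.698 in all settings, with edgeR adjusted p from 0.0021 to 0.24 over the libraries left out. The log2 ratio of the pigment sum was 0.18, against -0.22 as a geometric mean, -0.25 without Dct and -0.17 to 0.54 with 1 library left out. With the length and GC trend removed, Rab38 gave -0.058 and Col17a1 0.00095, signs opposite to the values reported. With 1 library left out, Pmel ran from -0.59 to 0.60, Rab38 from -0.15 to 0.17, Erbb3 from -0.40 to 0.19, Col17a1 from -0.13 to 0.019, Tfe3 from -0.061 to 0.17 and Ctsb from -0.24 to 0.13. The cause of these changes was not tested. A sample left alone in its group was assumed to vary like the other group. Without control 2, Sox10 had too few counts for a value. Depth limits Tyr, Mlana, Slc45a2, Kit and Sox10, each at no more than 28 counts in a library.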
